A study of Homo sapiens with 24 samples.

Results

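The 10 genes described here have long been used to classify diffuse large B-cell lymphoma (DLBCL) as activated B-cell-like (ABC), and were followed in 4 cell lines with and without silencing of the transcription factor FOXP1. They were BATF, ETV6, PIM1, PIM2, CFLAR, PTPN1, SH3BP5, ENTPD1, FUT8 and CYB5R2. These were chosen by name as established classifier genes, with earlier results of these data known. All 10 were on the array, as 10 of 30142 genes and 14 of 41000 probes. The GCB (germinal center B-cell-like) lines were DB and K422, and OCI-Ly3 and HBL-1 were the ABC-DLBCL lines. Each line was electroporated with siFOXP1 #1 (labelled siFOXP1_308), siFOXP1 #2 (siFOXP1_309) or a non-targeting siRNA (siCtrl), and RNA was taken after 48 h. Every one of 24 Agilent 2-color arrays carried FOXP1-silenced RNA in the Cy3 channel and siCtrl RNA of the same line in the Cy5 channel, with 3 replicates for each line and siRNA. Because the dyes were never swapped, a dye bias of a probe and its response cannot be told apart within a line. Each subtype rests on 2 established lines, and all cells, controls included, had been electroporated.

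ABC-DLBCL takes its name from a program that resembles B cells stimulated through their antigen receptor on the way to becoming plasma cells, with constant NF-kappaB activity. Several of the genes belong to that program. PIM kinases and the caspase-8 inhibitor encoded by CFLAR favor survival, BATF is an AP-1 family factor of activated lymphocytes, and PTPN1 encodes a phosphatase that restrains JAK-STAT signaling. FOXP1, a forkhead factor, is itself abundant in most ABC-DLBCL.

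Values come in the 2 scales of the arrays. A level is the log2 intensity of the siCtrl channel after quantile normalization, averaged over the arrays of a replicate number, and is compared only between lines for the same probe. A response is the log2 ratio of siFOXP1 over siCtrl on an array, positive where silencing raised the RNA. A gene was called when limma's Benjamini-Hochberg adjusted p was under 0.05 and the log2 difference was at least 0.5. In bulk RNA, fewer cells with a transcript and less RNA per cell cannot be told apart.

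The brightest probe stood for each gene. In the hg18 coordinates of the files these probes lie at chr14:75083004-75083063 for BATF, chr12:11935560-11935619 for ETV6, chr6:37251080-37251139 for PIM1, chrX:48655715-48655774 for PIM2 and chr2:201708976-201709035 for CFLAR. Those of the other genes lie at chr20:48634294-48634353 for PTPN1, chr3:15271494-15271553 for SH3BP5, chr10:97617206-97617265 for ENTPD1, chr14:65279276-65279335 for FUT8 and chr11:7642928-7642987 for CYB5R2. Second, dimmer probes existed for ETV6, CFLAR, SH3BP5 and ENTPD1. The first 30 bases of the ETV6 and SH3BP5 probes are shown because these were the genes called after silencing in the GCB-DLBCL lines, each read by a pair of probes. They are given as printed on the array, and the second ETV6 probe covers 4974 genomic bases with 60 bases, so it joins separate exons.
ETV6 brightest: ttttgtttttgtttttgttttaagaacctg
ETV6 second: ccaggacaaaggcttttgttcaggtttatg
SH3BP5 brightest: ttagcatttctaaaagaaaaaagcaaccct
SH3BP5 second: ggaggcctttgaagatgacagctgtagcaa

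On each array 57.3% to 64.5% of the probes rose well above background in Cy3 or Cy5. FOXP1 RNA fell in every line and on all 6 arrays of each. Its mean response was -1.96 in OCI-Ly3, -2.00 in DB, -1.74 in HBL-1 and -1.34 in K422. Silencing was deeper with siFOXP1 #2 in all 4 lines. The B-cell genes MS4A1, CD79A, CD79B, PAX5 and CD22 were above background in the siCtrl channel of every array. Of 6 T-cell genes, 3 in K422, 0 in DB and 1 in each ABC-DLBCL line were above background on all 6 siCtrl channels. In K422 the T-cell genes CD3D and CD3G had log2 levels of 11.73 and 12.81, and on the arrays of the other lines neither was above background. Of 4 myeloid genes on the array, 1 or 2 per line were above background on all 6 arrays, and of 5 plasma-cell genes, 4 or 5. The myeloid gene ITGAM was called higher in both ABC-DLBCL lines, OCI-Ly3 reading 8.01 on the log2 scale and HBL-1 reading 4.25. It was above background on 6 and 2 of 6 siCtrl channels of these lines and on 0 in DB and K422. Other myeloid genes ran otherwise. LYZ was called at -0.78 in OCI-Ly3 against DB and at -0.98 in HBL-1 against K422. It was above background on 1 siCtrl channel in DB and on 0 in the other lines. CSF1R was called at -2.56 in OCI-Ly3 against DB and at 1.37 in HBL-1 against K422. The plasma-cell factor PRDM1 was higher in OCI-Ly3 than in DB by 7.80 on the log2 scale, a called difference, with levels of 4.94 in HBL-1 and 5.03 in K422. Other plasma-cell genes were called in both directions. In OCI-Ly3 against DB, SDC1 stood at 0.70, TNFRSF17 at -1.64 and MGC29506 at -3.08. In HBL-1 against K422 the same genes stood at -2.31, 2.82 and 3.91, and XBP1 at 0.59. The part of these markers in the differences below was not tested.

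All 10 genes were higher in the ABC-DLBCL line than in the GCB-DLBCL line of the same scan, in both pairs. The median difference was 4.79 on the log2 scale for OCI-Ly3 against DB and 6.82 for HBL-1 against K422. The smallest differences were those of ENTPD1 in the first pair, 2.14, and of CFLAR in the second, 2.15. Since the genes are established markers of this subtype, the direction was known beforehand and the sizes are what the arrays add. Every one of the 10 was called higher in OCI-Ly3 than in DB, where 17.8% of all genes were. The same count held for HBL-1 against K422, with 17.2% of all genes, and for the mean of both pairs, with 16.9%. The spread in these tests is that of replicates within a line, not that between lines of a subtype. The median over all genes was -0.06, -0.03 and -0.07 in these 3 comparisons. The greatest adjusted p among the 10 was 9.89e-06 in the first pair and 6.55e-07 in the second. In each of the 10, the lowest of the 6 ABC-DLBCL values lay above the highest of the 6 GCB-DLBCL values, as it did for 6.25% of all genes. The gap between those values ran from 1.72 for CFLAR to 6.40 for PIM1.

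**Figure D1:**
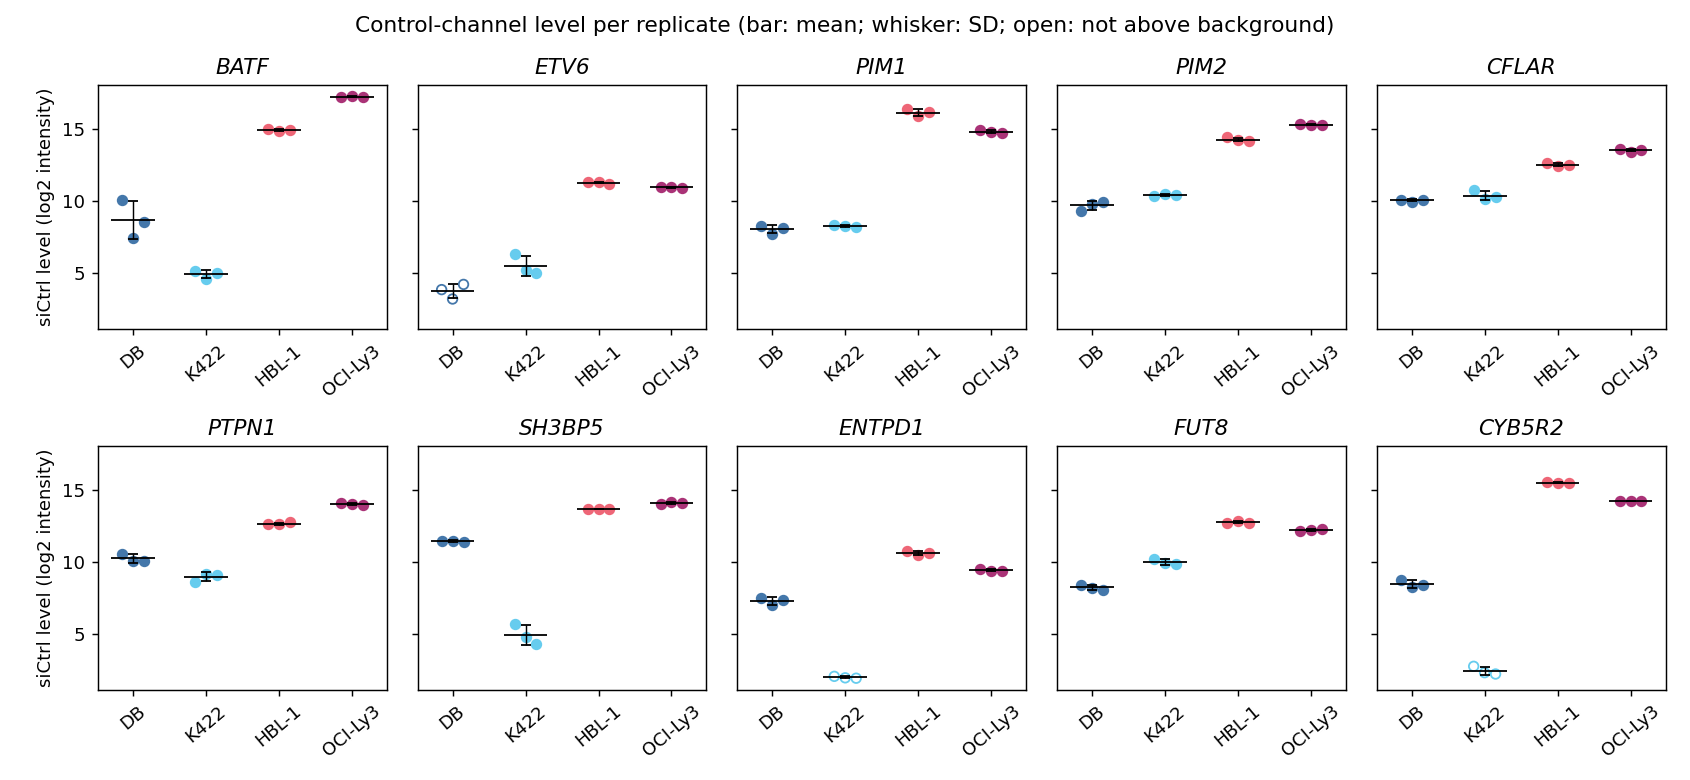
Level of each gene in siCtrl cells (log2 intensity, y axis) in 3 replicates of each line (x axis), with mean bars and SD whiskers. All 10 genes lie higher in both ABC-DLBCL lines, open points mark lines where the probe was not above background on any array, and BATF in DB shows the widest spread, with an SD of 1.30.

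Among the transcription factors, BATF gave the widest contrast with a measured level in all lines. Its replicate levels were 17.22, 17.28 and 17.20 in OCI-Ly3 and 14.88, 14.90 and 15.00 in HBL-1. They were 10.05, 7.46 and 8.52 in DB and 4.61, 5.00 and 5.17 in K422. The 4 lines did not overlap, and DB was the line whose replicates disagreed most. BATF was higher by 8.56 ± 0.49 (SE) in OCI-Ly3 than in DB and by 10.00 ± 0.49 in HBL-1 than in K422.

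ETV6, an ETS family repressor, was read only in part of the GCB-DLBCL lines. Its replicate levels were 11.31, 11.28 and 11.21 in HBL-1 and 10.97, 10.98 and 10.91 in OCI-Ly3. In K422 they were 6.30, 5.18 and 5.03. In DB the probe was not well above background on any array. By the main processing the ETV6 signal was 147-fold higher in OCI-Ly3 than in DB. For such ratios the dim side stands at the higher of its own signal and the lowest signal of any probe well above background on that array. For ETV6 its own signal was the higher, so the ratio is not a lower limit. A ratio of this kind holds for the main processing only. Under the alternatives the ETV6 difference between OCI-Ly3 and DB went down to 3.94 on the log2 scale. Against K422, HBL-1 was higher by 5.77 ± 0.32 on the log2 scale. The second ETV6 probe gave 8.25 and 8.19 in HBL-1 and OCI-Ly3, and was above background on 1 of 6 siCtrl channels in K422 and on 0 in DB.

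The survival genes PIM1, PIM2 and CFLAR were above background on all arrays of all lines. PIM1, a serine/threonine kinase induced by cytokine signals, had replicate levels of 16.35, 15.87 and 16.16 in HBL-1 and 14.92, 14.77 and 14.73 in OCI-Ly3. In K422 they were 8.33, 8.23 and 8.20, and in DB 8.28, 7.72 and 8.11. DB and K422 overlapped, while both ABC-DLBCL lines stood far above them. The difference was 109-fold for OCI-Ly3 against DB and 235-fold for HBL-1 against K422. The related kinase PIM2 averaged 15.28 ± 0.03 (SD, n = 3) in OCI-Ly3 and 9.68 ± 0.33 in DB, a 48.3-fold difference. It averaged 14.26 ± 0.13 in HBL-1 and 10.42 ± 0.05 in K422, a 14.3-fold difference. CFLAR, which encodes the caspase-8 inhibitor c-FLIP, differed least in the second pair, with 12.52 ± 0.09 in HBL-1 and 10.37 ± 0.32 in K422. It averaged 13.54 ± 0.10 in OCI-Ly3 and 10.04 ± 0.07 in DB. The second CFLAR probe gave 10.63, 9.17, 7.03 and 6.82 in OCI-Ly3, HBL-1, K422 and DB, in the same order of subtypes.

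The signaling genes PTPN1 and SH3BP5 differed in how far apart the GCB-DLBCL lines were. PTPN1 averaged 14.01 ± 0.06 in OCI-Ly3 against 10.22 ± 0.29 in DB, and 12.64 ± 0.07 in HBL-1 against 8.95 ± 0.30 in K422. Its difference was alike in both pairs, 3.78 ± 0.17 (SE) for OCI-Ly3 against DB and 3.68 ± 0.17 for HBL-1 against K422. SH3BP5, an adaptor that binds the BTK kinase and limits its activity, had replicate levels of 13.98, 14.16 and 14.10 in OCI-Ly3 and 13.65, 13.68 and 13.65 in HBL-1. The DB replicates gave 11.46, 11.44 and 11.39, and K422 only 5.66, 4.77 and 4.32. The GCB-DLBCL lines held very unlike levels, with no overlap. The difference was 2.65 ± 0.26 in the first pair and 8.74 ± 0.26 in the second.

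The enzymes ENTPD1, FUT8 and CYB5R2 included the widest contrast of all. CYB5R2, a cytochrome b5 reductase, had replicate levels of 15.50, 15.45 and 15.46 in HBL-1 and 14.23, 14.18 and 14.19 in OCI-Ly3. It averaged 8.45 ± 0.25 in DB and was not well above background on any K422 array. By the main processing its signal was 8507-fold higher in HBL-1 than in K422. The K422 side stands at its own signal, so this ratio is not a lower limit. Under the alternatives this difference went down to 8.66 on the log2 scale. ENTPD1, the CD39 ectonucleotidase that breaks down extracellular ATP, averaged 7.28 ± 0.26 in DB against 10.59 ± 0.14 in HBL-1 and 9.42 ± 0.08 in OCI-Ly3. It too was not well above background in K422, where the rule given for ETV6 set its level at 2.04 in place of 1.97. The ENTPD1 signal was then 375-fold higher in HBL-1 by the main processing. Under the alternatives the ENTPD1 difference in that pair went down to 4.14 on the log2 scale. FUT8, which adds the core fucose of N-glycans, was measured in all lines. It averaged 12.72 ± 0.07 in HBL-1, 12.20 ± 0.07 in OCI-Ly3, 9.97 ± 0.18 in K422 and 8.21 ± 0.18 in DB. With the levels below background set by the same rule, the median difference over both pairs moved from 5.54 to 5.52. Only ENTPD1 changed under it, since ETV6 and CYB5R2 kept their own signals. The size of this shift therefore does not show how much levels below background matter.

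**Figure D2:**
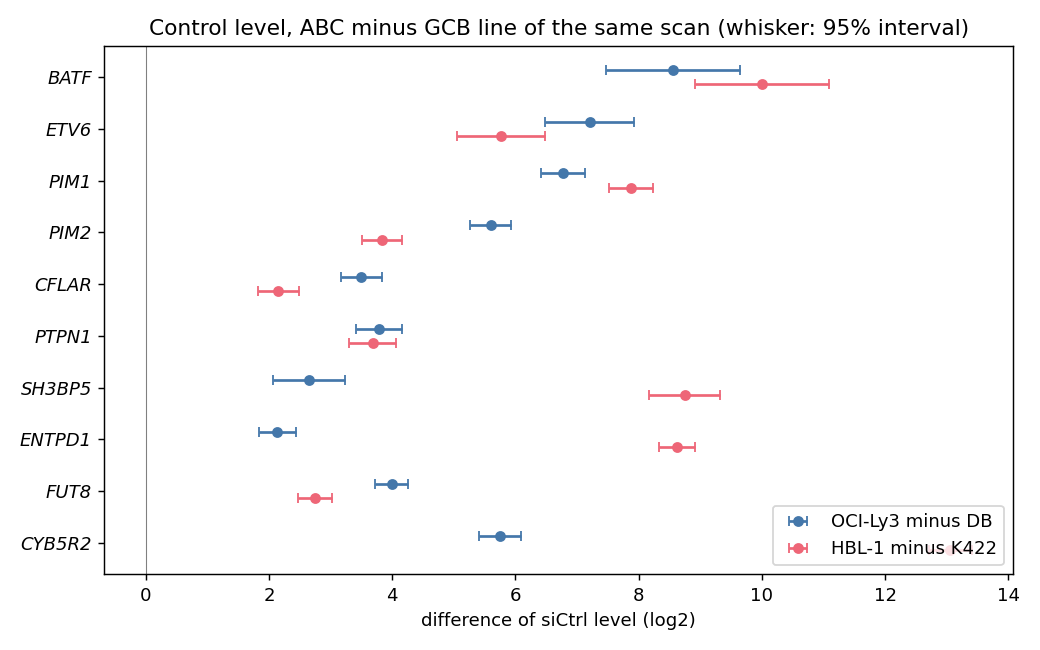
Fitted difference in siCtrl level (log2, x axis) between the ABC-DLBCL and the GCB-DLBCL line of the same scan for each gene (y axis), with 95% intervals. All 20 points lie right of 0, from 2.14 for ENTPD1 in OCI-Ly3 against DB to 13.05 for CYB5R2 in HBL-1 against K422. The K422 signal of CYB5R2 was not well above background.

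Slide and scan could be checked in part. The 2 slides that held both subtypes gave the same direction for 10 of 10 genes, from 2.14 to 8.71 on the slide with OCI-Ly3 and DB and from 2.38 to 13.30 on the slide with HBL-1 and K422. HBL-1 and OCI-Ly3 were scanned apart, as were DB and K422, so an order between 2 lines of one subtype and the scan cannot be told apart. FOXP1 itself was higher by 1.30 in OCI-Ly3 than in DB and by 1.16 in HBL-1 than in K422, both called.

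Genes of the wider subtype programs were read for comparison. Of 12 other ABC genes, among them IRF4, CCND2 and TNFRSF13B, 11 were called higher in OCI-Ly3 than in DB, 11 in HBL-1 than in K422 and 12 in the mean. Their median was 6.44 in the mean, beside 5.54 for the 10 genes. Of 11 GCB genes, such as MME and MYBL1, 7 were called lower in OCI-Ly3 than in DB, beside 21.7% of all genes, and 2 higher, ASB13 by 1.82 and S1PR2 by 2.65. In HBL-1 against K422, 9 were called lower, beside 21.6% of all genes, and 0 higher. In the mean 10 were called lower, beside 21.4%, and 0 higher.

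On silencing of FOXP1, none of the 10 genes was called changed in the ABC-DLBCL lines, where their levels were high. The count was 0 in HBL-1, where limma called 9.9% of all genes, and 0 in OCI-Ly3, where 4.42% were. By the adjusted p alone, 0 of 10 passed in HBL-1 beside 31.1% of all genes, and 0 of 10 in OCI-Ly3 beside 18.8%. At an unadjusted p under 0.05, 2 of 10 passed in each, beside 11576 of 30142 genes in HBL-1 and 8809 in OCI-Ly3. These tests pool the spread of all 4 lines. Fitted on the arrays of each line alone, limma's adjusted p passed 4 of 10 in HBL-1, BATF, CYB5R2, CFLAR and ETV6, beside 31.8% of all genes. In OCI-Ly3 it passed 2, CYB5R2 and ENTPD1, beside 19.2%. All 6 stayed under the size limit, a log2 of 0.5. In HBL-1 CFLAR averaged -0.12 on its brightest probe and 0.06 on its second, so the probes disagreed in sign. ETV6 averaged -0.13 and -0.14 on its probes there. The median response of the 10 was -0.05 in HBL-1, with all responses between -0.45 and 0.13. It was -0.07 in OCI-Ly3, with all between -0.20 and 0.11. For 8 of the 10 in each line, the 95% interval lay within 0.5 on either side of 0. Of all genes, 59.1% did so in HBL-1 and 65.6% in OCI-Ly3. Among the 10, the exceptions in both lines were BATF and CYB5R2. These values describe RNA 48 h after transfection, with FOXP1 RNA lowered but present.

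**Figure D3:**
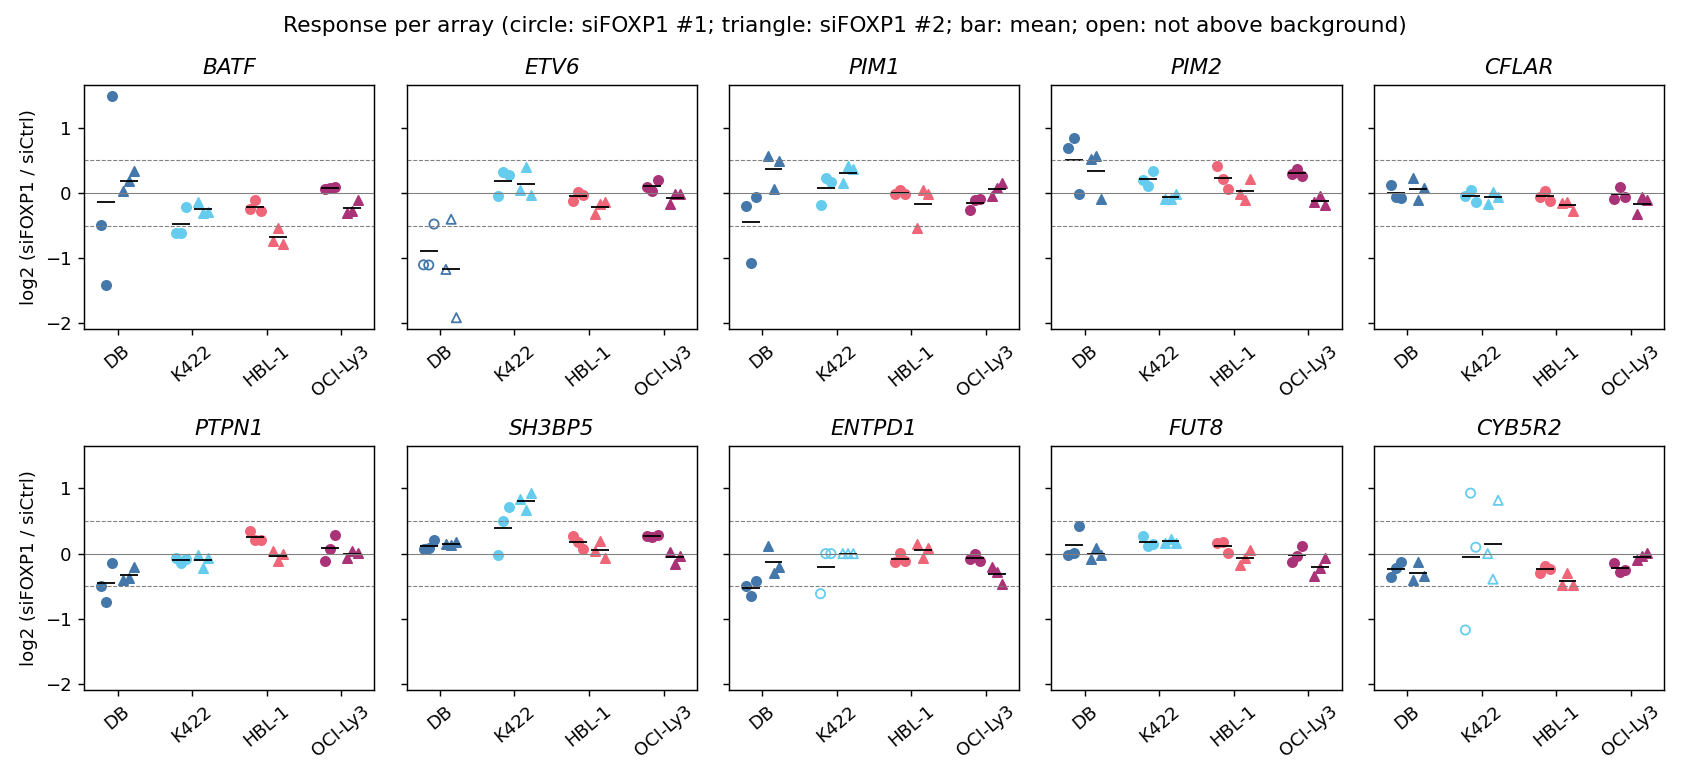
Response on each array (log2 ratio of siFOXP1 over siCtrl, y axis) by line (x axis), circles for siFOXP1 #1 and triangles for siFOXP1 #2, with dashed lines at a log2 of 0.5 either way. In HBL-1 and OCI-Ly3 most points lie between the lines, BATF with siFOXP1 #2 in HBL-1 reaches -0.78, and open points for ETV6 in DB and for ENTPD1 and CYB5R2 in K422 were not above background.

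By size, BATF in HBL-1 had the response farthest from 0 in the ABC-DLBCL lines. Its responses were -0.24, -0.11 and -0.28 with siFOXP1 #1 and -0.73, -0.54 and -0.78 with siFOXP1 #2. All 6 were negative, and the siRNAs did not overlap. The mean was -0.45 ± 0.21 (SE), with an interval from -0.89 to -0.00 and limma adjusted p = 0.129. This test shares its estimate of spread with DB, where BATF varied most. Fitted on the HBL-1 arrays alone the adjusted p was 0.00338, the size still under the limit. In OCI-Ly3, with the greatest BATF level, the mean was -0.08 ± 0.21, with responses from -0.30 to 0.09.

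CYB5R2 was also negative on all 6 HBL-1 arrays, from -0.48 to -0.19, with a mean of -0.33 ± 0.17 and limma adjusted p = 0.181, or 0.00385 with HBL-1 fitted alone. Its mean in OCI-Ly3 was -0.14, with 5 of 6 arrays negative. The pooled spread of CYB5R2 takes in K422, where the probe was not above background on any array. Its ratios there had an SD of 0.78, against 0.12 in HBL-1 and 0.11 in OCI-Ly3. Background correction by normexp with median centring in place of loess gave 3 calls in HBL-1, BATF at -0.83, CYB5R2 at -0.84 and PIM1 at -0.63. Under that setting 6.73% of all genes were called in HBL-1, and it gave no call in OCI-Ly3. The remaining HBL-1 responses ran from -0.13 for ETV6 to 0.13 for PIM2.

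ENTPD1 had the OCI-Ly3 mean farthest from 0, -0.20, negative on all 6 arrays from -0.47 to -0.00, with limma adjusted p = 0.0537, or 0.0376 with OCI-Ly3 fitted alone. Its second probe averaged 0.03, from -0.44 to 0.28, so the probes disagreed in sign. The responses of PIM1, PIM2 and CFLAR in this line were -0.05, 0.09 and -0.09. The second CFLAR probe averaged 0.11 and was positive on 5 of 6 arrays.

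In the GCB-DLBCL lines, where levels were low, 1 gene of 10 was called in each. K422 gave SH3BP5, which was higher after silencing, beside 4.44% of all genes called. DB gave ETV6, lower, beside 2.16% of all genes. The DB call rests on a probe not well above background in either channel on any array, so no fold is given for it. Its 6 ratios ran from -1.91 to -0.40, the second ETV6 probe had a ratio of 0 on every DB array, and normexp with loess brought the mean to -0.11. The median response over the 10 was 0.06 in K422 and -0.01 in DB.

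SH3BP5 in K422 gave responses of -0.02, 0.49 and 0.71 with siFOXP1 #1 and 0.84, 0.66 and 0.92 with siFOXP1 #2. On K422, 5 of 6 arrays were positive, and 1 replicate of siFOXP1 #1 stood at 0. The mean was 0.60 ± 0.06 (SE), with limma adjusted p = 5.73e-06, a 1.52-fold rise from the lowest SH3BP5 level of the 4 lines. The second probe averaged 0.92 and was positive on 6 of 6 arrays, but was well above background on only 2 siCtrl and 4 siFOXP1 channels. Without K422 replicate 3 the mean was 0.49, and with normexp and loess 0.30, both under the size limit with limma adjusted p = 0.000178 and 6.17e-05. With normexp and median centring it was 0.32 with limma adjusted p = 0.257, past neither limit. In DB, HBL-1 and OCI-Ly3 the SH3BP5 responses were 0.13, 0.11 and 0.11, none of them called.

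By the adjusted p alone, 4 of 10 genes passed in DB, beside 12.1% of all genes, and 2 of 10 in K422, beside 19.4%. In DB the 3 besides ETV6 were PTPN1, ENTPD1 and PIM2. PTPN1 averaged -0.39 and was negative on all 6 arrays, from -0.74 to -0.14, with limma adjusted p = 0.000333. ENTPD1 gave -0.33, negative on 5 of 6 arrays, with limma adjusted p = 0.00405, while its second probe averaged -0.03. In K422 the gene besides SH3BP5 was FUT8, higher on all 6 arrays, from 0.12 to 0.27, with a mean of 0.18 and limma adjusted p = 0.0232. With K422 fitted alone 3 of 10 passed, BATF, SH3BP5 and FUT8, beside 15.7% of all genes.

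PIM2 in DB gave unlike responses in its replicates. Its responses were 0.69, 0.84 and -0.01 with siFOXP1 #1 and 0.52, 0.56 and -0.09 with siFOXP1 #2. In each siRNA it was replicate 3, on another slide than replicates 1 and 2, that stayed near 0. The mean was 0.42 ± 0.09 with limma adjusted p = 0.00568, and 0.65 without replicate 3, then past the size limit with adjusted p = 5.36e-06. With the slide as a random block it was 0.37 with limma adjusted p = 0.0292. PTPN1 in DB likewise moved from -0.39 to -0.50 without that replicate and passed the limit. Fitted on the DB arrays alone, limma's adjusted p passed 0 of 10 beside 1.29% of all genes, the lowest of the 10 being 0.0878. In that fit 5 of 10 had an unadjusted p under 0.05, and the share of all genes at that limit was not counted.

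BATF in DB ran in both directions. It gave -0.49, -1.41 and 1.48 with siFOXP1 #1 and 0.03, 0.18 and 0.34 with siFOXP1 #2. The first siRNA spanned both directions, and the second stayed near 0. Its siCtrl levels varied alongside, from 7.35 to 10.09 over the 6 arrays, and the 2 siCtrl channels of replicate 3 read 7.66 and 9.38. The part of this spread in the response was not tested. The mean was 0.02 ± 0.21, with an interval from -0.42 to 0.47. In K422, BATF was negative on 6 of 6 arrays, with a mean of -0.36 and limma adjusted p = 0.274, or 0.0327 with K422 fitted alone.

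**Figure D4:**
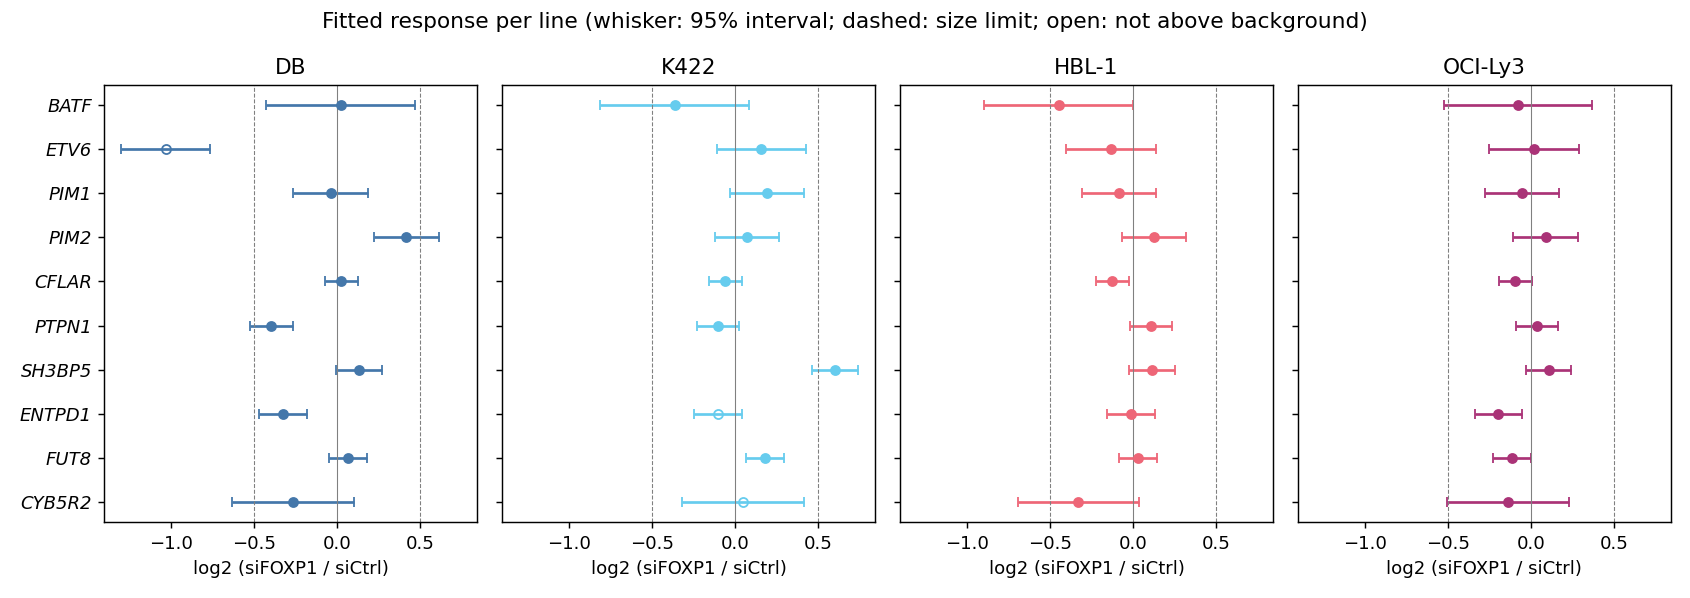
Fitted response of each gene (log2, x axis) in each line with 95% intervals and dashed lines at the size limit of 0.5. SH3BP5 in K422 at 0.60 and ETV6 in DB at -1.03, open because it was not above background, are the points past a line.

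The silencing siRNAs were compared with each other because siFOXP1 #2 lowered FOXP1 further. No gene of the 10 was called between them in any line. Of all genes, 0.302% were in DB, 0.192% in OCI-Ly3, 0.173% in HBL-1 and 0.159% in K422. At an unadjusted p under 0.05, limma passed ENTPD1 and PIM1 in DB, SH3BP5 in K422, PTPN1 in HBL-1, and SH3BP5 and PIM2 in OCI-Ly3. The same limit was passed by 1924 of all 30142 genes for OCI-Ly3, 1705 for HBL-1, 3004 for DB and 2046 for K422. Among the members just listed, the PIM1 difference in DB was the greatest. Its values were -0.20, -1.08 and -0.06 under siFOXP1 #1 and 0.56, 0.05 and 0.49 under siFOXP1 #2. The values did not overlap, and siFOXP1 #2 was higher by 0.81 ± 0.21 with limma adjusted p = 0.122. With the replicate number as a block the same difference had adjusted p = 0.0201 and was called. Without DB replicate 3, BATF was the gene called between the siRNAs, at 1.06.

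The 3 values of one siRNA lay wholly apart from those of the other for 7 of 10 genes in OCI-Ly3, 4 in HBL-1, 1 in K422 and 2 in DB. Among all genes these shares were 11.6%, 11.6%, 10.3% and 8.29%. In HBL-1 all 4 were lower with siFOXP1 #2, namely BATF, PTPN1, ETV6 and CFLAR. In OCI-Ly3 BATF, ENTPD1, SH3BP5, ETV6 and PIM2 were lower with siFOXP1 #2, and CYB5R2 and PIM1 higher. PIM2 showed this in OCI-Ly3 with 0.29, 0.36 and 0.25 against -0.14, -0.05 and -0.19. The sizes were small, and the median difference between siRNAs was -0.18 in HBL-1 and -0.19 for OCI-Ly3. The labels name one siCtrl replicate for both siRNAs, so their ratios may share control RNA.

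**Figure D5:**
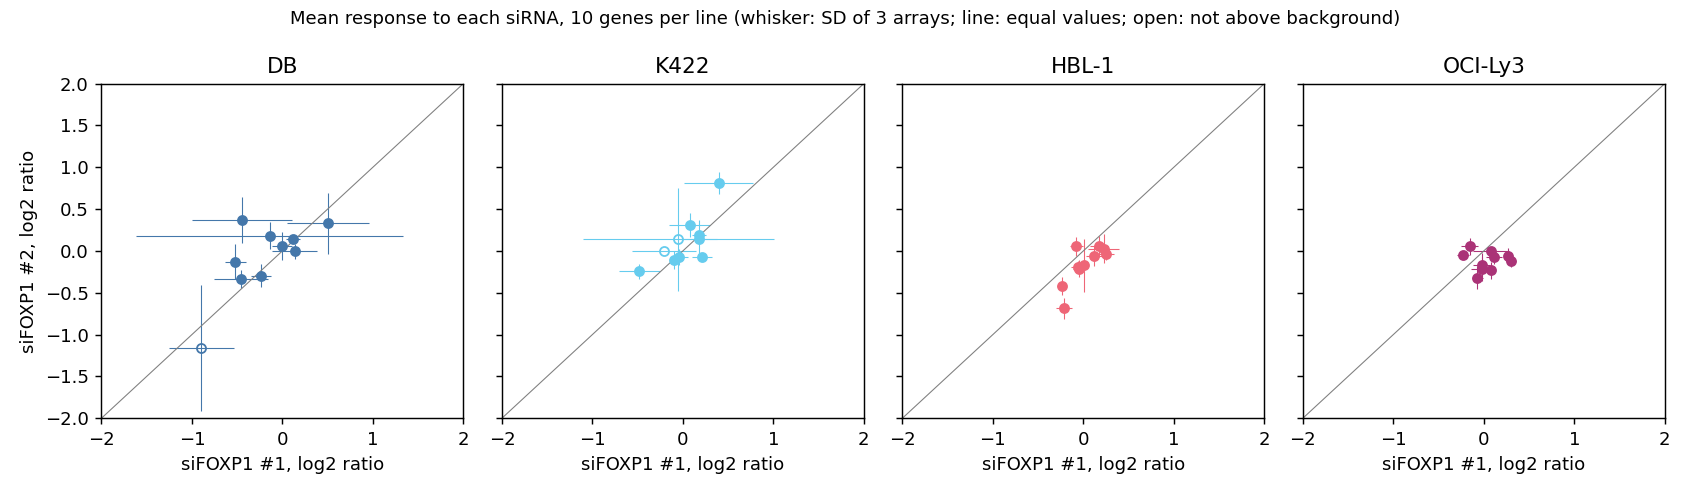
Mean response to siFOXP1 #2 (y axis) against siFOXP1 #1 (x axis), both log2 ratios, for the 10 genes in each line, with SD whiskers of 3 arrays and a line of equal values. In HBL-1 and OCI-Ly3 most points lie below the line, by a median of 0.18 and 0.19, and open points were not above background.

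The subtypes were last compared in their response. The SE and p of this comparison rest on the spread of arrays within a line and siRNA, not on that between lines of a subtype. No gene of the 10 was called between the mean of the ABC-DLBCL lines and that of the GCB-DLBCL lines, where 2.26% of all genes were. At an unadjusted p under 0.05, 4 of 10 passed limma's test, beside 6233 of 30142 genes. By the adjusted p alone 2 of 10 passed, beside 8.3% of all genes. PTPN1 was higher in the ABC-DLBCL mean by 0.32 ± 0.06 with limma adjusted p = 0.00237, its responses being -0.39 in DB and -0.10 in K422 against 0.11 and 0.04 in HBL-1 and OCI-Ly3. SH3BP5 was lower by 0.26 ± 0.06 with limma adjusted p = 0.0188, beside its rise in K422. Other members ran from -0.17 for FUT8 to 0.38 for ETV6, the latter resting on the unmeasured DB ratio.

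Within scans, OCI-Ly3 against DB gave 1 call of 10, ETV6, beside 1.43% of all genes. HBL-1 against K422 gave 0, beside 4.34%. There limma passed 2 of 10 at an unadjusted p under 0.05, beside 6608 of 30142 genes. The gene nearest to a call was SH3BP5 at -0.49 ± 0.09 with limma adjusted p = 0.00214. With the slide as a random block that difference was -0.52 and called. On the slide that holds HBL-1 and K422 the SH3BP5 difference was -0.66. For PTPN1 the difference was 0.43 for OCI-Ly3 against DB over all arrays, with limma adjusted p = 0.00779, and 0.08 on the slide that holds both. For HBL-1 against K422 it was 0.21 over all arrays, with limma adjusted p = 0.143, and 0.26 on their slide.

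The promoters were searched for motif letters because FOXP1 is a forkhead factor and NF-kappaB is active in ABC-DLBCL. RefSeq sequence on GRCh38.p14 covered 250 bases before to 50 after each start site and matched all 10 genes by symbol. On either strand, the forkhead letters TGTTTAC occurred in a window of 0 of the 10 genes and of 4.19% of all genes. The letters TATTTAT occurred in 1, CYB5R2, and in 6.11% of all genes. The kappa-B motif occurred in 3, CFLAR, FUT8 and SH3BP5, and in 13.3% of all genes. The motifs share no letters in these windows, and genes with several start sites had several windows. The 2 upstream stretches of 250 bases are shown, each 5′ to 3′ on the gene's strand with the kappa-B match in capitals, for SH3BP5 (chr3:15332587-15332836, minus strand) and for the first start site of CFLAR (chr2:201118466-201118715, plus strand).
SH3BP5: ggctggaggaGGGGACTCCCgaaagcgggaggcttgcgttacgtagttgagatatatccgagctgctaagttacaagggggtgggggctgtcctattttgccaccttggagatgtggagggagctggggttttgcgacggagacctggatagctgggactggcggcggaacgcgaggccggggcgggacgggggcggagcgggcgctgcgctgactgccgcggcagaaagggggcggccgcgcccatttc
CFLAR: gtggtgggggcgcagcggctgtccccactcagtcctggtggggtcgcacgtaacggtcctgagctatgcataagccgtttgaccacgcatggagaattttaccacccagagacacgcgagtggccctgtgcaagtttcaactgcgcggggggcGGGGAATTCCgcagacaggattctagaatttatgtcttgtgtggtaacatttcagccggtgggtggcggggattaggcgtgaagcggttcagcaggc
A match describes letters only and is not a measured site.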

How the data were processed

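The authors hybridised cRNA of 24 samples to Agilent 2-color arrays and deposited the Feature Extraction output of each array. In these deposited files the authors' software gives the intensity of both channels with background subtracted. It also gives, per the file headers, the log10 of red over green (Cy5 over Cy3) after a linear and loess dye correction. The headers give version 10.5.1.1 for scan 1 (DB and OCI-Ly3) and 10.7.3.1 for scan 2 (K422 and HBL-1), and coordinates in hg18. The authors also deposited a matrix of log2 ratios, used here as an alternative.

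Spots flagged as outliers (113 to 469 per array) and the 1639 control spots were dropped. The log10 ratio was divided by log10 of 2 and turned, so that it is siFOXP1 over siCtrl. At background, Feature Extraction uses a surrogate or sets the ratio to 0. No spot of the 14 probes was saturated. R 4.3.3 with limma 3.58.1 estimated 8 means, one per line and siRNA, from all 24 arrays, and for levels the 4 line means over 3 values per line. The response of a line averages its siRNAs, and p-values were adjusted by Benjamini-Hochberg over all genes. Data were simulated for 29561 genes with 200 changed by a log2 of 1. Between 86% and 89.5% of these were recovered for the 4 responses and between 51.5% and 69.5% for the 3 level comparisons. The simulated noise was independent between arrays and had the same spread in all lines for a gene, and the number of arrays was not varied. In the data the spread could differ between lines, the BATF ratios having an SD of 0.96 in DB and 0.18 in OCI-Ly3.

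The named genes are all 10 and FOXP1. They, and the lists of B-cell, T-cell, myeloid, plasma-cell, other ABC and GCB genes, were chosen with earlier results of these data known. The replicate numbers were taken as pairing in the averaged levels and in the replicate block, since the series describes independent experiments. The main fit of the responses, with its comparison of the siRNAs, had no replicate term. Within a line, deviations of same-numbered arrays correlated between 0.0467 and 0.284 across all genes, against -0.209 to 0.0443 for different numbers. Over 17173 genes above background these ranges were 0.0907 to 0.537 and -0.468 to 0.121. Alternatives were normexp (offset 50) with loess or median centring, the matrix, other scalings, the Cy3 channel, dim probes removed, outliers retained, probes averaged, replicate or slide as a block, each line or siRNA alone, the methods' t-test, other size limits and leaving out each replicate. The slide as a block for levels and the values within slides were added after the data were seen.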

Additional observations from a re-analysis of the deposited data

Results flagged for a closer look

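Of 40 groups of 6 arrays, each the ratios of a gene in a line, 3 had an array far from the other 5, where chance gives about 1 in 20 groups, or 2. ENTPD1 in K422 gave -0.61 with siFOXP1_308 replicate 1 and 0 on the other arrays, and was not above background on any of them. FUT8 in DB gave 0.42 with siFOXP1_308 replicate 3, the others lying between -0.09 and 0.09. PIM1 in HBL-1 gave -0.54 with siFOXP1_309 replicate 1, the others lying between -0.02 and 0.05.

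The response of ETV6 differed between OCI-Ly3 and DB by 1.05 in the test of the difference itself, with limma adjusted p = 0.00267. In DB the probe was not above background in either channel on any array, and the response in OCI-Ly3 was 0.02.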

How the results depend on the processing

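All 10 genes stayed called higher in the ABC-DLBCL lines, in each pair and in the mean, under all 23 alternatives for levels, with a smallest difference of 1.58. No called value turned its direction under any alternative. Of 1790 recomputed responses, 63 uncalled ones changed sign, 11 lost a call and 26 gained one. The cause was not tested except where a size limit or fewer samples make the change.

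The 1 call in DB became 0 with normexp and loess, with normexp and median centring, with each line alone and with the methods' t-test, and became 3 with siFOXP1_308 alone and 4 with no limit on size. It ran from 1 to 3 when a replicate was left out, 3 coming without DB replicate 3. The 1 call in K422 became 0 with normexp and loess or median centring, with siFOXP1_308 alone and at a log2 limit of 1, and 2 with no limit on size. It ran from 0 to 1, 0 coming without K422 replicate 3. The 0 calls in HBL-1 became 3 with median centring.

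The 1 call for OCI-Ly3 against DB became 0 with normexp and loess or median centring and 2 with no limit on size, and ran from 1 to 3, 3 coming without DB replicate 3. The 0 calls for HBL-1 against K422 became 3 with median centring and 1 each with the mean over probes, the slide as a block and no limit on size. They ran from 0 to 2, 2 coming without K422 replicate 1 and 1 each without HBL-1 replicates 1 and 2. The 0 calls between subtypes became 2 with no limit on size. With the replicate block, the 0 calls between siRNAs in DB became 1, PIM1, and the block changed no other count of calls. Leaving out replicates gave 0 to 1 there, 1 coming without DB replicate 3. ETV6 in DB and ENTPD1 and CYB5R2 in K422 lay too near background to measure a response.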
